A study of Homo sapiens with 12 samples.

Results

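Expression of RBMX, of its paralog RBMXL1 and of genes for proteins that work with RBMX in splicing was followed in HEK293 cells that overexpress RBMX. The 8 genes were chosen by symbol: RBMX, RBMXL1, CCBL2, TRA2A, TRA2B, KHDRBS1, SAFB and SAFB2. All 8 are among the 25268 gene symbols of the expression table, and all 8 passed the filter on low values that left 14676 genes for testing. HEK293 cells, a long-established line from human embryonic kidney, were transiently transfected with 2 µg of pCMV6-HIS-HA-RBMX, a plasmid that carries the full-length RBMX cDNA behind a His-HA tag, or with the mock empty vector, and RNA was extracted 48 h later. The mock-transfected cells are labelled wild type by the submitters and are called control below. With 3 replicates for each vector and fraction, 12 libraries were sequenced. The total and polysomal libraries of the same vector and replicate number were taken to come from the same culture, which gives 3 cultures per vector. Every culture was treated with cycloheximide, which halts translating ribosomes, and its lysate was cleared of nuclei before it was separated on a sucrose gradient. Polysomal RNA came from the heavy fractions and total RNA from 20% of each fraction, so nuclear RNA is largely outside these measurements.

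RBMX, also called hnRNP G, is a nuclear RNA-binding protein with an RNA recognition motif that controls the inclusion of alternative exons. It binds to the SR-like splicing activators TRA2A and TRA2B, to the KH-domain protein KHDRBS1 (Sam68) and to the scaffold attachment factors SAFB and SAFB2, and it can act with or against the TRA2 proteins on the same exon. RBMXL1 is a retrogene copy of RBMX. Apart from 7 bases at its start, it lies within the span of CCBL2, on the same strand. CCBL2 is a kynurenine aminotransferase gene named KYAT3 in newer annotation.

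The similarity between RBMX and RBMXL1 bears on every value given for the pair, so their sequences come first. In the GENCODE release 29 annotation of GRCh38, RBMX lies on the minus strand of chromosome X from 136848004 to 136880764, and its longest coding transcript has 1173 coding bases in 8 coding exons. RBMXL1 lies on the minus strand of chromosome 1 from 88979456 to 88992960 and holds its 1170 coding bases in 1 exon. Over the whole coding length 1138 of 1170 aligned bases were identical (97.3%), with 32 mismatches, 3 gap bases and an identical run of up to 152 bases. The first 30 coding bases, which hold the start codon, are shown 5′ to 3′ because they are the same in both genes, in exon 2 of RBMX (chrX:136879398-136879427, minus strand) and in exon 3 of RBMXL1 (chr1:88983797-88983826, minus strand).
RBMX and RBMXL1, coding bases 1 to 30: atggttgaagcagatcgcccaggaaagctc
The libraries were read as paired ends of 100 bases. Of the 1074 windows of 100 bases in the RBMX coding sequence, 59 (5.49%) are identical in RBMXL1 and 587 (54.7%) differ by at most 2 bases. A further 4 windows occur in the pseudogene RBMXP4 and 3 in RBMXP2, which are not listed in the table under these symbols. How reads that match both genes were divided is not given in the sources used here, so the share counted for RBMXL1 is uncertain.

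The other pairs were less alike. TRA2A (chromosome 7, 23504780 to 23532041, minus strand) and TRA2B (chromosome 3, 185915906 to 185938136, minus strand) were 70.0% identical over their aligned coding bases and had 0 windows of 100 bases in common. SAFB (plus strand) and SAFB2 (minus strand) run in opposite directions on chromosome 19, from 5623035 to 5668478 and from 5586999 to 5624046. These genes overlap at their 5′ ends, with start sites 1011 bases apart and 0 exonic bases in common. They were 78.8% identical, but a run of 520 bases was the same in both, and 421 of the 2652 windows of SAFB (15.9%) occur in SAFB2. Levels of SAFB and SAFB2 are therefore uncertain to the extent that such reads were shared out. KHDRBS1 (chromosome 1, 32013829 to 32060850, plus strand) had 0 windows in any other gene. CCBL2 spans 88935773 to 88992953 on the minus strand of chromosome 1. Its start lies 7 bases from that of RBMXL1, and 338 of the 1971 windows of its transcript (17.1%) are shared with transcripts of RBMXL1, all of them outside the coding part.

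**Figure D1:**
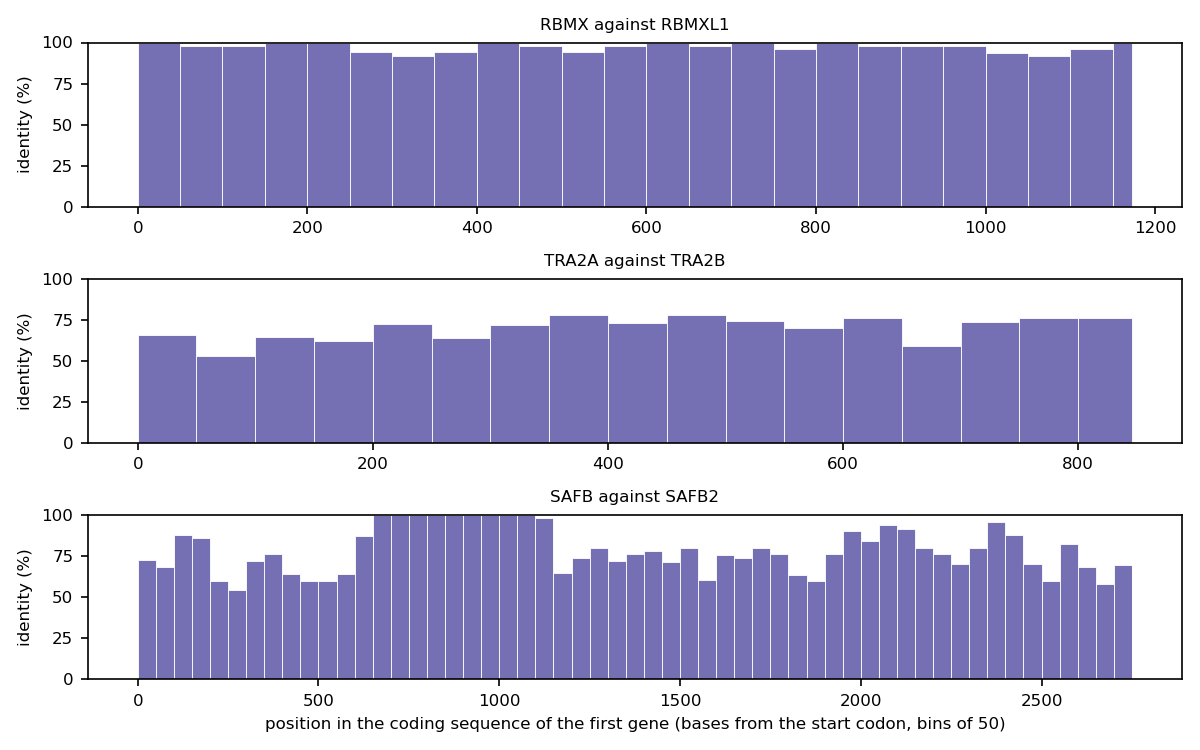
Identity of coding sequences within the 3 pairs, in percent of aligned bases, for successive bins of 50 bases along the coding sequence of the gene named first (horizontal axis, bases from the start codon). RBMX and RBMXL1 stay at or above 92.0% in all 24 bins, and TRA2A and TRA2B fall to 53.2%. SAFB and SAFB2 have 10 bins without a mismatch among 56, of which the last holds only 1 base.

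The values are FPKM (fragment counts scaled by transcript length and by the size of a library), which allow levels of different genes to be compared per length. The fragments behind each library are unknown: between libraries, only 11.5% to 23.5% of genes with up to 0.05 FPKM shared one step in value, too few to recover the depth. Small RNA genes held 40.6% to 72.9% of the FPKM sum of a library. The libraries of control culture 3 stood apart: against the mean of the other 2 libraries of the group, 12.1% of 14182 genes other than small RNA genes differed by over 0.5 on the log2 scale for the total library and 18.9% for the polysomal library, where the other 10 libraries had 0.945% to 3.99%. All 7 HEK293 markers fixed for this check (VIM, KRT8, KRT18, NEFL, NEFM, INA and PAX2) were expressed. Their summed level was 438 to 904 FPKM in control total, 404 to 956 in control polysomal, 846 to 886 in RBMX total and 956 to 986 in RBMX polysomal libraries, and all 7 were lower in control culture 3 than in the other control cultures. Of 9 markers of blood, liver, fibroblast and endothelial cells, 8 stayed at or below 0.593 FPKM in all 12 libraries. The ninth, the collagen gene COL1A1, made up most of the summed level of these markers, which was 3.65 to 5.54 FPKM in control total against 6.34 to 7.16 in RBMX total, and 4.32 to 6.18 in control polysomal against 6.95 to 9.08 in RBMX polysomal libraries. The part of these markers in the results was not tested.

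Control culture 3 was low for all 8 genes, in both fractions. Relative to the mean of control cultures 1 and 2 its difference on the log2(FPKM + 1) scale had a median over the 8 genes of -0.57 in total and -0.76 in polysomal RNA. Over 14182 genes other than small RNA genes the medians were 0.0067 and 0.00060. KHDRBS1 was furthest from its fellows, at 41.9% of their mean FPKM in total and 30.9% in polysomal RNA, and only 0.933% and 0.538% of all genes tested had a lower difference. SAFB stood at 44.3% and 45.1%, SAFB2 at 52.8% and 58.6%, RBMXL1 at 62.7% and 46.0%, RBMX at 73.8% and 59.5% and CCBL2 at 68.8% and 56.4%. The TRA2 genes were closest, with 89.3% and 72.9% for TRA2A and 83.2% and 73.1% for TRA2B. For TRA2A, 28.2% of all genes tested had a lower difference in total and 15.4% in polysomal RNA. Other splicing proteins that bind RBMX, from a list of the study, were low as well, 16 of 20 in total and 17 of 20 in polysomal RNA with medians of -0.54 and -0.58, while SR proteins and their kinases had medians of 0.077 and -0.0096. Comparisons of the 8 genes with control cells are therefore also given without control culture 3. The total library of RBMX culture 3 was also below the mean of its fellows for all 8 genes, though less so, with a median of -0.13. In its polysomal library 4 of the 8 were lower.

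**Figure D2:**
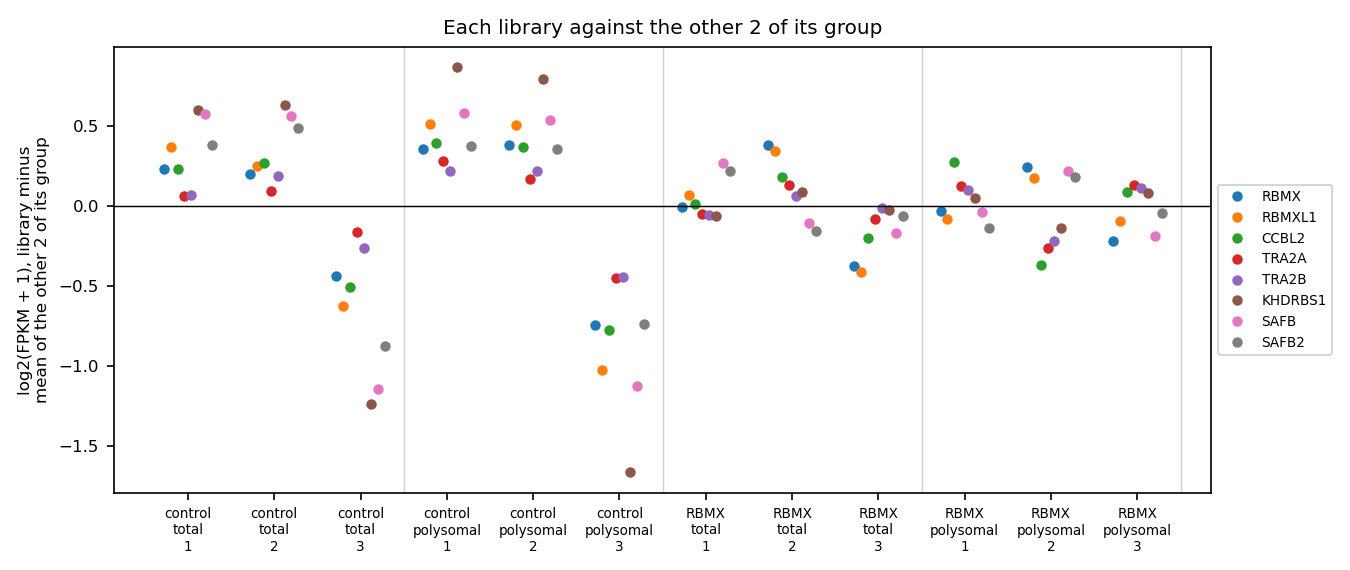
Difference of each library from the mean of the other 2 libraries of its group, on the log2(FPKM + 1) scale (vertical axis), for the 8 genes in the 12 libraries (horizontal axis, group and culture number). All 8 points of control culture 3 lie below 0 in total and in polysomal RNA, down to -1.24 and -1.67 for KHDRBS1.

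RBMX itself checked the labels. In total RNA the control cultures 1, 2 and 3 had 147, 145 and 108 FPKM and the RBMX cultures 1731, 2073 and 1460.3. In polysomal RNA the values were 146, 148 and 87.4 in control and 1167, 1328 and 1072 in RBMX cultures. Every RBMX library lay far above every control library, and RBMX went from rank 555 to 1023 among genes other than small RNA genes in the control libraries to rank 14 to 34. The mean was 13.2-fold higher in total and 9.36-fold higher in polysomal RNA, or 12.0-fold and 8.09-fold without control culture 3. The log2 fold change was 3.71 in total RNA (SE 0.19, limma adjusted p = 0.00269) and 3.25 in polysomal RNA (SE 0.24, limma adjusted p = 0.0415). The polysomal call was lost without control culture 1 (limma adjusted p = 0.115), control culture 2 (0.147), RBMX culture 1 (0.205) or RBMX culture 2 (0.213), and also with no filter on low values (0.0655). One value per gene does not separate plasmid from endogenous mRNA, and more transfected cells and more RBMX mRNA per cell cannot be told apart.

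RBMXL1 was the only other of the 8 genes that passed the test. Its control values were 17.1, 16.1 and 10.4 FPKM in total and 17.0, 16.9 and 7.81 in polysomal RNA. In the RBMX cultures they were 554, 629.6 and 443 FPKM in total and 339.8, 383 and 338 in polysomal RNA. The groups were far apart, and RBMXL1 moved from rank 5593 to 8265 to rank 93 to 179, from the lowest mean of the 8 genes to the second highest. The mean was 37.4-fold higher in total and 25.4-fold higher in polysomal RNA, against 32.7-fold and 20.8-fold without control culture 3. Reads of the RBMX plasmid that were counted for RBMXL1 cannot be told apart from RBMXL1 mRNA in these values. Their share was not tested, so the fold changes are those of the listed values and not of RBMXL1 mRNA alone. The log2 fold change was 5.14 (SE 0.22, limma adjusted p = 0.00154) in total and 4.64 (SE 0.30, limma adjusted p = 0.0264) in polysomal RNA. In polysomal RNA the call was lost without control culture 2 (limma adjusted p = 0.0636), RBMX culture 1 (0.134) or RBMX culture 2 (0.171), and with no filter on low values (0.0524). These 2 of the 8 genes, both higher, stood against 0.164% of all genes called in total RNA (0.109% called higher) and 0.0477% in polysomal RNA (0.0273% called higher). RBMX is the transfected gene, so its rise was set by the design, and the call of RBMXL1 cannot be taken as independent of it. The count is therefore no result about the 8 genes as a group.

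The ratio of RBMXL1 to RBMX was compared in each library. In total RNA it was 0.116, 0.111 and 0.0963 with the empty vector and 0.320, 0.304 and 0.304 with RBMX. In polysomal RNA it was 0.116, 0.115 and 0.0893 against 0.291, 0.288 and 0.315. The ratios of both groups thus lay apart by a log2 difference of 1.53 in total and 1.49 in polysomal RNA (two-sided exact permutation test, p = 0.1 in each fraction, the smallest that 3 against 3 allow). Between the means of control and RBMX cells, RBMXL1 gained 528 FPKM and RBMX 1621 in total RNA, which is 0.326 FPKM of RBMXL1 per FPKM of RBMX, and 339.6 and 1062 in polysomal RNA, which is 0.320. For comparison, the ratio of TRA2B to TRA2A stayed between 0.482 and 0.539 in all 12 libraries, and the ratio of SAFB2 to SAFB between 0.412 and 0.539, with its 2 highest values in control culture 3 (0.516 in total and 0.539 in polysomal RNA).

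**Figure D3:**
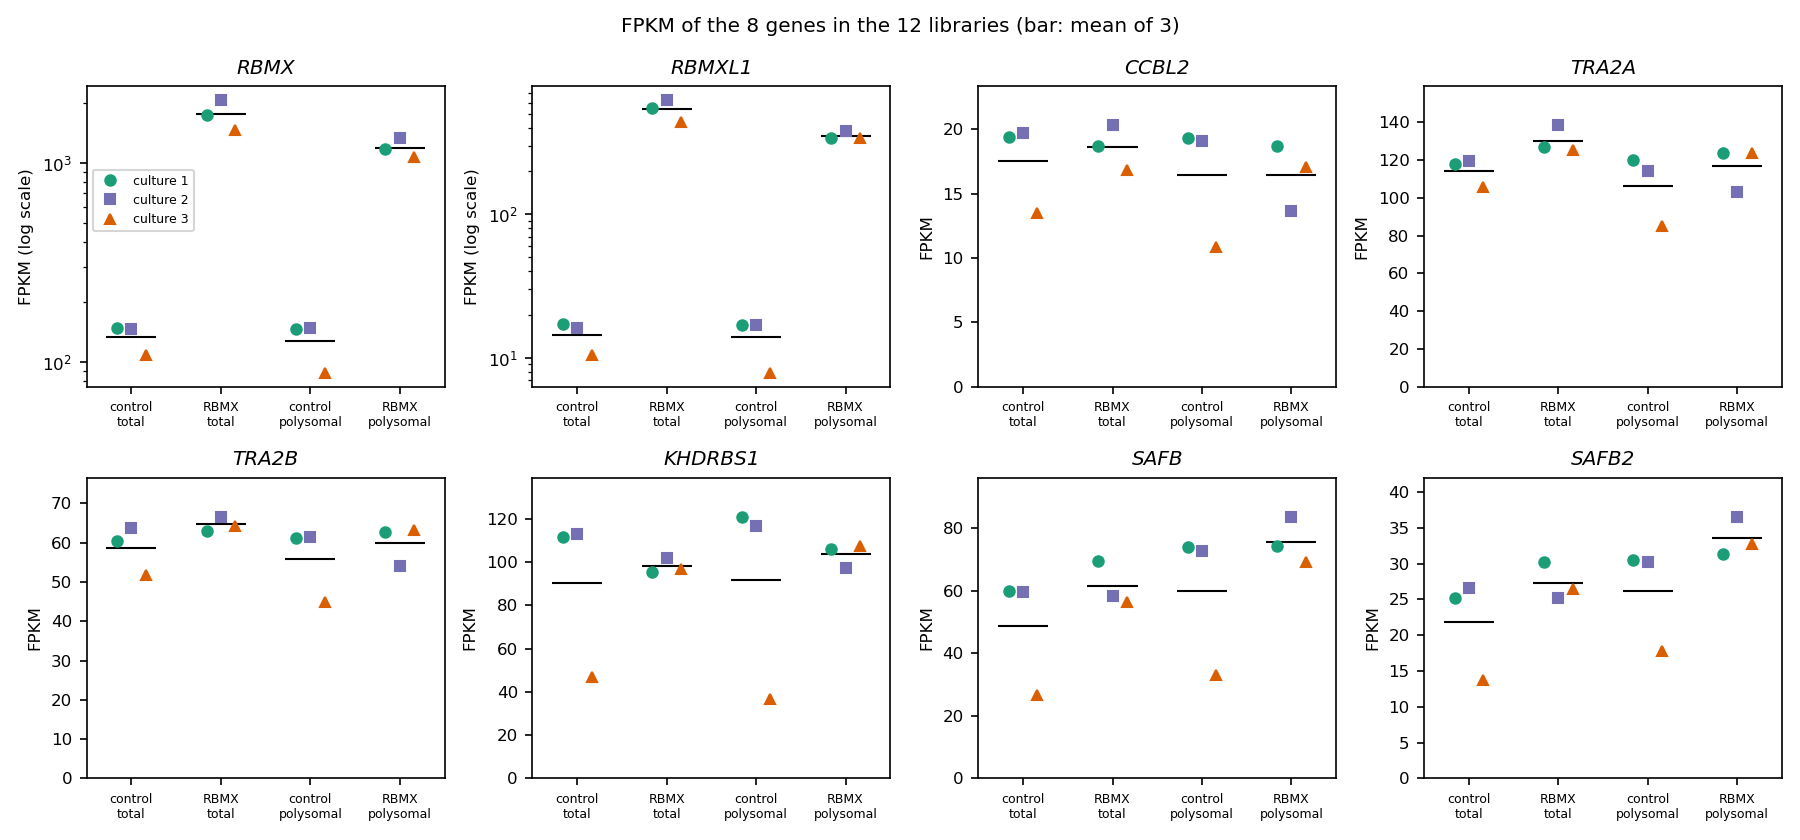
FPKM of the 8 genes (vertical axes, log scale for RBMX and RBMXL1, linear from 0 for the other 6) in each library, by group. Colour and shape give the culture number and bars the mean of 3. RBMX and RBMXL1 are far above control in all RBMX libraries, and the triangle of control culture 3 is the lowest of its group in every panel and fraction.

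CCBL2 overlaps RBMXL1 at its 5′ end but did not rise with it. Its values were 19.4, 19.7 and 13.5 FPKM in control total, 18.7, 20.3 and 16.8 in RBMX total, 19.3, 19.1 and 10.8 in control polysomal and 18.7, 13.6 and 17.0 in RBMX polysomal libraries. The groups overlapped in both fractions. The log2 fold change was 0.098 in total RNA (SE 0.16, 95% interval -0.31 to 0.50, limma adjusted p = 0.766) and 0.035 in polysomal RNA (SE 0.25, interval -0.59 to 0.66, limma adjusted p = 0.965). Without control culture 3 the values turned to -0.071 and -0.22.

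TRA2A and TRA2B, the activators of exon inclusion that RBMX binds, did not pass the test. TRA2A was at 118, 119 and 106 FPKM in control total and at 127, 138 and 125 in RBMX total libraries. All 3 RBMX libraries were above all 3 control libraries, as for 11.9% of all genes tested, and the log2 fold change was 0.19 (SE 0.075, 95% interval -0.00082 to 0.37, limma adjusted p = 0.268). In polysomal RNA the values were 120.0, 114 and 85.3 against 123, 103 and 124, which overlap, with a log2 fold change of 0.14 (SE 0.16, interval -0.26 to 0.55, limma adjusted p = 0.712). Without control culture 3 TRA2A gave 0.13 in total and -0.0080 in polysomal RNA. TRA2B was about 0.5 of the level of TRA2A, with 60.4, 63.8 and 51.7 FPKM in control total, 63.1, 66.6 and 64.3 in RBMX total, 61.3, 61.3 and 44.8 in control polysomal and 62.6, 54.0 and 63.2 in RBMX polysomal libraries. Its groups overlapped in both fractions. The log2 fold change of TRA2B was 0.14 in total RNA (SE 0.089, 95% interval -0.077 to 0.37, limma adjusted p = 0.427) and 0.11 in polysomal RNA (SE 0.15, interval -0.26 to 0.49, limma adjusted p = 0.756), and 0.058 and -0.036 without control culture 3.

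KHDRBS1, which encodes the RNA-binding protein Sam68, a substrate of Src-type kinases, was the gene most changed by leaving out control culture 3. In total RNA control cultures 1 to 3 had 112, 113 and 47.0 FPKM and RBMX cultures 95.3, 102 and 96.8. In polysomal RNA the values were 121, 117 and 36.7 against 106, 97.2 and 108. Control cultures 1 and 2 were above every RBMX library and control culture 3 below every one, in both fractions. With all cultures the log2 fold change was 0.22 in total RNA (SE 0.35, 95% interval -0.66 to 1.10, limma adjusted p = 0.760) and 0.36 in polysomal RNA (SE 0.48, interval -0.83 to 1.55, limma adjusted p = 0.755). Without control culture 3 it turned to -0.19 in total RNA (SE 0.046, limma adjusted p = 0.132) and -0.20 in polysomal RNA (SE 0.067, limma adjusted p = 0.270), which did not pass the test either.

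SAFB and SAFB2, nuclear proteins that bind both DNA and RNA, had positive fold changes with all cultures that shrank without control culture 3. SAFB was at 60.0, 59.6 and 26.5 FPKM in control total and 69.5, 58.3 and 56.5 in RBMX total libraries, and at 74.1, 72.6 and 33.0 against 74.1, 83.6 and 69.1 in polysomal RNA. The ranges overlapped in both fractions. The log2 fold change of SAFB was 0.41 in total RNA (SE 0.34, 95% interval -0.42 to 1.25, limma adjusted p = 0.540) and 0.41 in polysomal RNA (SE 0.33, interval -0.41 to 1.24, limma adjusted p = 0.614), and 0.032 and 0.039 without control culture 3. SAFB2 was at 25.2, 26.5 and 13.7 FPKM in control total, 30.2, 25.2 and 26.4 in RBMX total, 30.5, 30.2 and 17.8 in control polysomal and 31.4, 36.5 and 32.8 in RBMX polysomal libraries. The SAFB2 groups overlapped in total RNA, while in polysomal RNA all RBMX libraries were above all control libraries, as for 10.0% of all genes tested. For SAFB2 the log2 fold change was 0.36 in total RNA (SE 0.26, 95% interval -0.29 to 1.01, limma adjusted p = 0.489) and 0.38 in polysomal RNA (SE 0.22, interval -0.17 to 0.94, limma adjusted p = 0.506), and 0.070 and 0.14 without control culture 3.

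**Figure D4:**
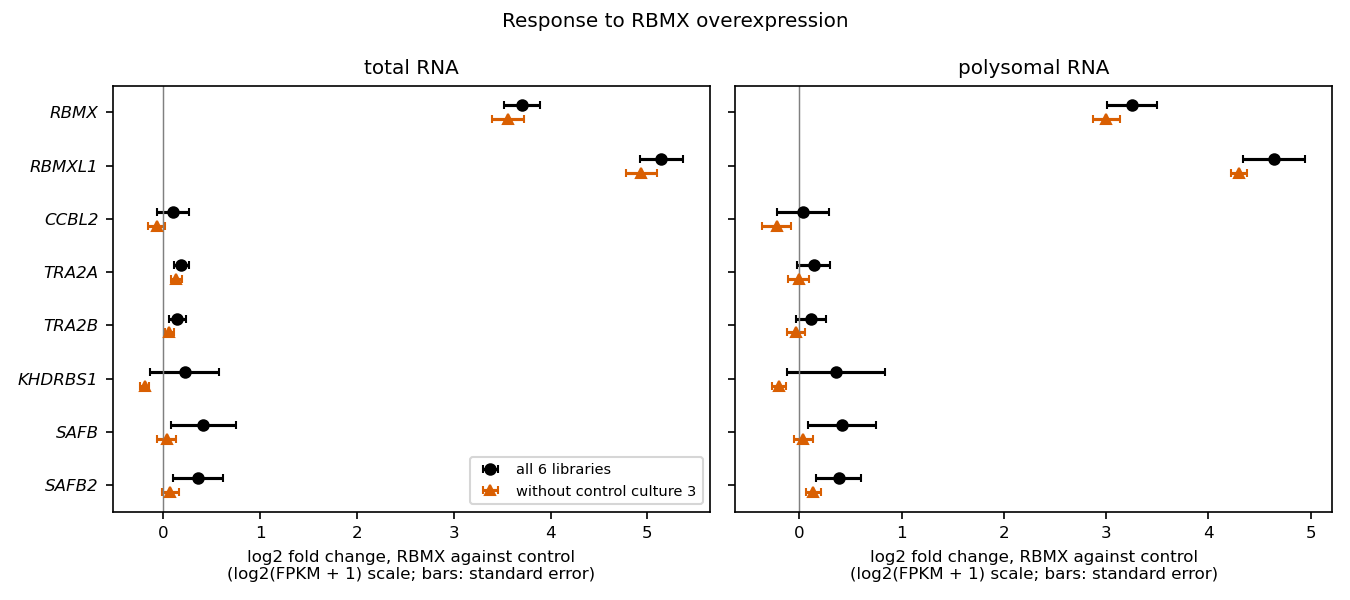
Log2 fold change of RBMX-overexpressing against control cells on the log2(FPKM + 1) scale (horizontal axes) for the 8 genes, with all 6 libraries of a fraction (black circles) and without control culture 3 (orange triangles). Bars are standard errors. RBMX (3.71 in total and 3.25 in polysomal RNA) and RBMXL1 (5.14 and 4.64) are far from 0, and KHDRBS1 crosses 0 when control culture 3 is left out.

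The order of the mean levels in control total RNA was RBMX, TRA2A, KHDRBS1, TRA2B, SAFB, SAFB2, CCBL2 and RBMXL1, from 133 to 14.5 FPKM, and the range of each gene overlapped that of the next. In RBMX total RNA the order was RBMX, RBMXL1, TRA2A, KHDRBS1, TRA2B, SAFB, SAFB2 and CCBL2, from 1755 to 18.6 FPKM. There only TRA2B and SAFB, at 64.7 and 61.4 FPKM, overlapped as neighbours.

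How the mRNAs of the 8 genes were distributed to polysomes was compared within each culture. The ratio of polysomal to total FPKM of RBMX was 0.991, 1.02 and 0.810 in control and 0.674, 0.640 and 0.734 in RBMX cultures. For RBMXL1 it was 0.996, 1.05 and 0.752 against 0.613, 0.608 and 0.762, which overlap by the third culture of each vector. Over all genes the median of this difference lay between -0.023 and 0.023 on the log2 scale in the 6 cultures. Within RBMX cells the polysomal libraries were lower than all total libraries for RBMX, RBMXL1 and TRA2A, as for 16.2% of all genes tested. The fits that follow did not pair the libraries of a culture, unless a culture block is named. The log2 difference of RBMX was -0.55 (SE 0.21, limma unadjusted p = 0.0456, adjusted p = 0.211) and turned to 0.24 with quantile normalization, and that of RBMXL1 was -0.60 (SE 0.15, limma unadjusted p = 0.00911, adjusted p = 0.131) and shrank to -0.096 with quantile normalization. TRA2A differed by -0.16 (SE 0.094, limma adjusted p = 0.361).

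SAFB and SAFB2 had the highest mean ratios of polysomal to total FPKM among the 8 genes for both vectors, although KHDRBS1, at 1.11, was above both in RBMX culture 1. SAFB was at 1.24, 1.22 and 1.25 in control and at 1.07, 1.43 and 1.22 in RBMX cultures. SAFB2 was at 1.21, 1.14 and 1.30 in control and at 1.04, 1.45 and 1.24 in RBMX cultures. All 6 cultures were above 1 for both genes. In RBMX cells the log2 difference was 0.30 for SAFB (SE 0.11, limma unadjusted p = 0.0380, adjusted p = 0.197) and 0.29 for SAFB2 (SE 0.091, limma unadjusted p = 0.0205, adjusted p = 0.160), and the libraries of SAFB2 did not overlap, as for 14.6% of all genes tested. In control cells it was 0.30 for SAFB (SE 0.46, limma adjusted p = 0.959) and 0.27 for SAFB2 (SE 0.33, limma adjusted p = 0.930). With each culture as a block the SE fell to 0.035 for SAFB (limma unadjusted p = 0.00154, adjusted p = 0.148) and 0.052 for SAFB2 (limma unadjusted p = 0.00868, adjusted p = 0.179). With both libraries of control culture 3 left out, it was 0.29 for SAFB (SE 0.025, limma adjusted p = 0.0550) and 0.22 for SAFB2 (SE 0.037, limma adjusted p = 0.110). In control cells the fractions overlapped for all 8 genes, where 7.63% of all genes tested were higher and 7.31% lower without overlap. None of the 8 genes passed in either comparison of the fractions, where 0.0818% of all genes (12 genes) were called in control and 1.34% (196 genes) in RBMX cells. With each culture as a block, 6 genes were called in control and 4 in RBMX cells, and again none of the 8. At a limma unadjusted p under 0.05 there were 0 of the 8 in control cells, against 8.04% of all genes, and 4 of the 8 in RBMX cells, against 23.0%. With the culture block these were 2 of the 8 (SAFB and SAFB2) against 21.0% of all genes, and 3 of the 8 (RBMX, RBMXL1 and SAFB) against 21.9%.

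**Figure D5:**
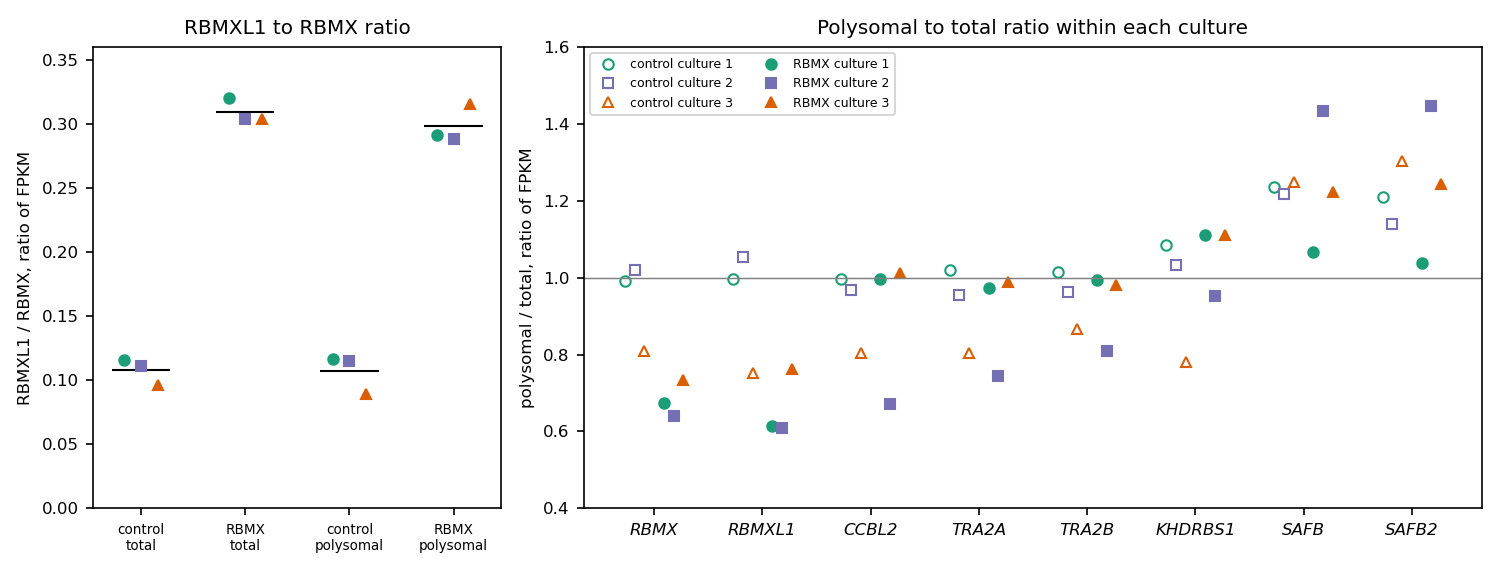
Left, ratio of RBMXL1 to RBMX FPKM in each library (bars, mean of 3). Right, ratio of polysomal to total FPKM in each culture, open symbols for control and filled symbols for RBMX cultures. The RBMXL1 to RBMX ratio is near 0.11 in control and near 0.30 in RBMX libraries. On the right, RBMX lies between 0.640 and 0.734 in RBMX cultures for FPKM as deposited, a direction that turns with quantile normalization, and SAFB and SAFB2 lie above 1 in all 6 cultures.

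Whether the response to RBMX differed between the fractions was tested by the interaction over all 12 libraries, unpaired except where a culture block is named. None of the 8 genes passed, while 0.0204% of all genes (3 genes, or 5 with each culture as a block) were called, and 0 of the 8 had a limma unadjusted p under 0.05 against 0.600% of all genes. With the culture block 2 of the 8 did, RBMX (0.0146) and RBMXL1 (0.0175), against 2.15% of all genes, with a limma adjusted p = 1.00 for both. RBMX differed by -0.46 (polysomal minus total effect, log2 scale, SE 0.32, 95% interval -1.17 to 0.26, limma adjusted p = 1.00), with the opposite sign (0.28) after quantile normalization. RBMXL1 differed by -0.50 (SE 0.40, interval -1.39 to 0.38, limma adjusted p = 1.00), which shrank to -0.0090 after quantile normalization. With both libraries of control culture 3 left out, the values were -0.56 for RBMX (SE 0.22, limma unadjusted p = 0.0348, adjusted p = 1.00) and -0.64 for RBMXL1 (SE 0.19, limma unadjusted p = 0.0112, adjusted p = 1.00). The other 6 genes lay between -0.063 (CCBL2) and 0.14 (KHDRBS1), with intervals as wide as -1.28 to 1.55 for KHDRBS1.

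Relatives of the 8 genes were low or did not pass the test. RBMXL2, the testis-expressed member of the RBMX family, and RBMXL3 stayed at or below 0.0543 and 0.0224 FPKM, and KHDRBS2 at or below 0.0065. SNORD61, a small nucleolar RNA encoded in an RBMX intron, was listed at 0 in all 12 libraries. RBMX2, KHDRBS3, SLTM and the cold-inducible proteins RBM3 and CIRBP passed the filter, and 0 of the 5 passed the test on RBMX overexpression in either fraction. KHDRBS3, a close relative of KHDRBS1, went from 11.0 to 11.5 FPKM in control total to 9.94 to 10.4 in RBMX total libraries, lower without overlap as were 15.4% of all genes tested. Its log2 fold change was -0.15 (SE 0.052, limma adjusted p = 0.236), and -0.16 without control culture 3. SLTM, related to SAFB, had a log2 fold change of 0.10 (SE 0.17, limma adjusted p = 0.768), which turned to -0.080 without control culture 3.

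Wider splicing lists gave 0 calls on RBMX overexpression. Of the other splicing proteins that bind RBMX, 20 of 21 were tested. Their median log2 fold change was 0.21 in total and 0.21 in polysomal RNA beside a median of 0 over all genes, with 2 and 1 genes at a limma unadjusted p under 0.05, against 18.8% and 11.7% of all genes. Without control culture 3, in which these genes were low, the median was 0.018 in total and -0.043 in polysomal RNA, beside -0.013 and -0.027 over all genes. SF3A2, a subunit of the U2 particle, gave 0.37 (SE 0.21, limma adjusted p = 0.389) in total RNA, and 0.14 without control culture 3.

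Among SR proteins and the kinases that phosphorylate them, all 21 were tested. The median was 0.13 in total and 0.065 in polysomal RNA, and 6 and 0 genes of 21 had a limma unadjusted p under 0.05, against 18.8% and 11.7% of all genes. Without control culture 3 the median was 0.20 and 0.047. CLK1, a kinase of SR proteins, gave 0.40 (SE 0.19, limma adjusted p = 0.315) and SRSF7 0.34 (SE 0.056, limma adjusted p = 0.152) in total RNA. Without control culture 3 CLK1 gave 0.58 (limma adjusted p = 0.126) and SRSF7 0.33 (limma adjusted p = 0.119) in total RNA. SRSF7 was at 123 to 128 FPKM in control total and 153 to 165 in RBMX total libraries, which do not overlap, as for 11.9% of all genes tested. Of 12 genes with exons known to be controlled by RBMX, TRA2 proteins or Sam68, 11 were tested and had medians of -0.00061 in total and -0.023 in polysomal RNA, with 3 and 1 genes of 11 at a limma unadjusted p under 0.05, against 18.8% and 11.7% of all genes. Without control culture 3 the medians were -0.063 and -0.046. CD44, a cell surface adhesion receptor, gave 0.40 (SE 0.10, limma adjusted p = 0.177), and 0.43 without control culture 3. It went from 6.66 to 7.39 FPKM in control total to 8.56 to 11.1 in RBMX total libraries. NASP, a histone chaperone, gave 0.37 (SE 0.24, limma adjusted p = 0.453), and 0.096 without control culture 3. Exon inclusion itself is not in these values, which are summed over each gene.

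The genes whose profile over the 12 libraries was most like that of RBMX were found by the mean absolute difference between log2(FPKM + 1) values centred on each gene's mean. Leaving out the members and small RNA genes, these were IFI27 (0.52), IFI44 (0.53) and IFIT1 (0.56), all interferon-induced, while RBMXL1 itself was at 0.71. The measure counts the size of a change, and RBMXL1 changed more than RBMX (log2 fold change 5.14 against 3.71 in total RNA). A lower value therefore does not mean that a gene followed RBMX more closely from culture to culture. In total RNA IFI27 was at 21.0, 22.5 and 19.5 FPKM in control and at 244, 249 and 61.7 in RBMX cultures. IFI44 went from 13.5, 15.2 and 7.82 to 111, 129 and 30.6, and IFIT1 from 67.0, 78.3 and 24.9 to 475, 559 and 132. Since likeness to the RBMX profile chose these genes, their higher values in the RBMX libraries restate the choice and are given as a description. Their limma adjusted p of 0.170, 0.176 and 0.182 in total RNA did not pass.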

How the data were processed

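RNA-seq of 12 HEK293 libraries, 3 for each vector and fraction, was re-analysed. The authors deposited FPKM values per gene symbol, and the submitters' processing notes name CASAVA 1.8, TopHat2 2.0.13, Cufflinks 2.2.1, Cuffnorm and hg19. The paper's methods describe a count-based analysis of other builds and do not describe the FPKM table. Columns were matched to samples by description, with 0 columns left unmatched.

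The log2 of FPKM + 1 was used, which understates changes of low genes. Genes whose mean FPKM over the 12 libraries reached 0.5 were tested with limma 3.58.1 (lmFit, eBayes with trend, R 4.3.3) on the 6 libraries of each comparison, or on all 12 for the interaction, and p-values were Benjamini-Hochberg adjusted over all genes tested, with a threshold of 0.05. The p-values of the limma fits rest on the spread between 3 cultures per group, moderated over genes. In the interaction and the comparisons of fractions, the libraries of a culture entered as independent unless a culture block is named. Fits were tested on simulated data. Coding sequences, from GENCODE release 29 on GRCh38, were aligned with Biopython 1.88. Permutation tests used scipy 1.17.1 and plots matplotlib 3.10.9, under Python 3.11.15.

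Members and lists were chosen with earlier results of these data known. The splicing interactors came from the study's list, and the other lists from general knowledge. Named are all members, their relatives, the 2 genes of each list with the largest absolute change in total RNA and the 3 genes most like RBMX, except that some items the rule names are not reported here. Total and polysomal libraries with the same vector and number were taken as the same culture. The main fits did not pair them, and pairing entered only where a culture block is named and in the ratios within cultures. Across genes other than small RNA genes their deviations correlated with 0.606, 0.686 and 0.836 in control and 0.223, 0.0199 and 0.655 in RBMX cultures, where genes are not independent replicates. Alternatives were a pseudocount of 0.1, no filter or a minimum of 1, median-ratio and quantile normalization, no trend, a block for replicate number or culture, a single fit of all 12 libraries, and leaving out each replicate in turn. Leaving out both libraries of control culture 3, for the interaction, the control fractions and the lists, was added after seeing the data.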

Additional observations from a re-analysis of the deposited data

How the results depend on the processing

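RBMX and RBMXL1 passed in total RNA under every alternative tried (limma adjusted p 5.77e-05 to 0.0269 and 2.55e-05 to 0.0156). In polysomal RNA (0.000331 to 0.213 and 0.000135 to 0.171), 0 of the 8 genes passed with no filter on low values, 0 with a replicate block, and 0 to 2 with a replicate left out. Same-numbered control and RBMX libraries share only a number: their deviations correlated with 0.339, -0.042 and 0.021 in total and -0.17, -0.0052 and 0.067 in polysomal RNA. The culture block on polysomal against total RNA and on the interaction changed no other call among the 8 genes.

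Reversed values among genes that did not pass, whose cause was not tested, were these. The interaction became -0.0010 for SAFB with a pseudocount of 0.1, 0.28 for RBMX, 0.028 for TRA2A and 0.013 for TRA2B with quantile normalization, and -0.0048 for KHDRBS1 without control culture 3. Polysomal against total RNA became 0.0068 for RBMX, 0.033 for RBMXL1 and 0.082 for KHDRBS1 in control cells without culture 3, and 0.24 for RBMX in RBMX cells with quantile normalization. With each replicate left out in turn, the fold change in total RNA ran from -0.071 to 0.19 for CCBL2 and -0.19 to 0.43 for KHDRBS1. In polysomal RNA it ran from -0.22 to 0.17 for CCBL2, -0.0080 to 0.24 for TRA2A, -0.036 to 0.19 for TRA2B and -0.20 to 0.65 for KHDRBS1. The interaction ran from -0.32 to 0.11 for CCBL2, -0.19 to 0.050 for TRA2A, -0.18 to 0.054 for TRA2B, -0.42 to 0.55 for KHDRBS1, -0.37 to 0.38 for SAFB and -0.22 to 0.31 for SAFB2. Polysomal against total RNA of control cells ran from -0.24 to 0.15 for RBMX, -0.31 to 0.24 for RBMXL1, -0.28 to 0.14 for CCBL2, -0.21 to 0.034 for TRA2A, -0.17 to 0.070 for TRA2B, -0.47 to 0.49 for KHDRBS1, -0.086 to 0.67 for SAFB and -0.022 to 0.51 for SAFB2.

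Over the alternatives, the main settings left out, calls over all genes ran from 13 to 178 in total RNA (24 as reported), 3 to 126 in polysomal RNA (7), 3 to 7 for the interaction (3), 6 to 199 between fractions in control cells (12) and 4 to 188 in RBMX cells, below the 196 reported. The highest counts of the alternatives came without RBMX culture 3 in total (178) and polysomal RNA (126) and without control culture 3 between the fractions of control cells (199). Small changes of single genes were not detectable with 3 cultures.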
